A study of Bos taurus with 16 samples.

Results

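The aryl hydrocarbon receptor and the xenobiotic sensors of liver were followed here through 7 genes: AHR, AHRR, ARNT, TIPARP, NR1I2, NR1I3 and POR. They were taken by symbol from the array's probe annotation, and all 7 carried 1 symbol and 1 probe set each, among 18010 named genes. Levels were read in livers of 16 Angus steers, castrated male beef cattle, with 1 array and 1 animal per sample. All steers entered after weaning at a body weight of 209 ± 29.4 kg, were allotted to their phase at random and received a cotton seed hull diet in amounts set for a gain of 1.5 kg per day. The 8 growing steers were sampled at a final weight of 301 kg and the 8 finishing steers at 576 kg, so the phases differ in weight and feeding time at once. The labels name no drug, toxicant or genetic difference between the phases.

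AHR is a ligand-activated transcription factor that waits in the cytoplasm and, once bound by dioxin-like compounds, plant indoles or tryptophan breakdown products, enters the nucleus and pairs with ARNT. The pair switches on CYP1 monooxygenases and also AHRR and TIPARP, which act back on the receptor. NR1I2, the pregnane X receptor PXR, and NR1I3, the constitutive androstane receptor CAR, pair with retinoid X receptors and control CYP2 and CYP3 enzymes, conjugating enzymes and transporters. POR is the flavoprotein that passes electrons from NADPH to microsomal cytochromes P450. These roles are known mainly from mouse and human.

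Signals were log2 values per probe set, and differences are finishing minus growing on that scale. The fit was limma over all 26773 probe sets, with a Benjamini-Hochberg adjusted p under 0.05 taken as a call. It called 1777 probe sets, 6.64% of those tested, of which 4.30% were lower and 2.34% higher in finishing steers. The tissue label was checked against 10 hepatocyte markers, whose mean log2 signal lay between 12.7 and 12.9 in every array. Finishing replicates 5 and 6 correlated least with their own group, with medians of 0.978 and 0.981 against 0.984 to 0.989 for the other arrays, so the difference of each member is also given without both.

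AHR was the 1 member of 7 that passed the test, and it fell. The directions of ARNT, NR1I2, NR1I3 and POR were also downward, but none of these 4 passed, and TIPARP was higher on average without passing. AHRR had nearly equal means. The finishing mean was lower in 5 of 7 members, beside 43.5% of all probe sets. The 1 call of 7 is 14.3%, beside the 6.64% called over all probe sets, and 5 of 7 members had an unadjusted limma p under 0.05, beside 21.6% of all probe sets. The median difference of the 7 was -0.37, beside 0.025 over all probe sets. With so few members these shares describe the genes and were not tested as a group.

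AHR, the receptor itself, read 9.80, 9.25, 9.35, 9.75, 9.53, 9.26, 9.28 and 9.25 in growing replicates 1 to 8. In finishing replicates 1 to 8 it read 8.87, 8.64, 8.47, 8.95, 9.39, 8.96, 8.32 and 8.32. Every finishing steer lay below the growing mean and 7 of 8 lay below all growing steers, the exception being finishing replicate 5. The means were 9.43 ± 0.23 in growing and 8.74 ± 0.37 in finishing livers (SD, n = 8 per group). AHR fell by 0.70 ± 0.14 (SE), to 61.7% of its growing level (limma adjusted p = 0.00954; 95% interval -1.0 to -0.39). Without finishing replicate 5 the difference was -0.79 (limma adjusted p = 0.00314), and over all 16 fits that left out 1 array it stayed between -0.79 and -0.64 and past the threshold. Without finishing replicates 5 and 6 it was -0.84 (adjusted p = 0.00555). An exact permutation test over all arrangements of the 16 steers gave an adjusted p of 0.0294, whereas an exact rank-sum test gave 0.0524 and so lost the call.

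**Figure D1:**
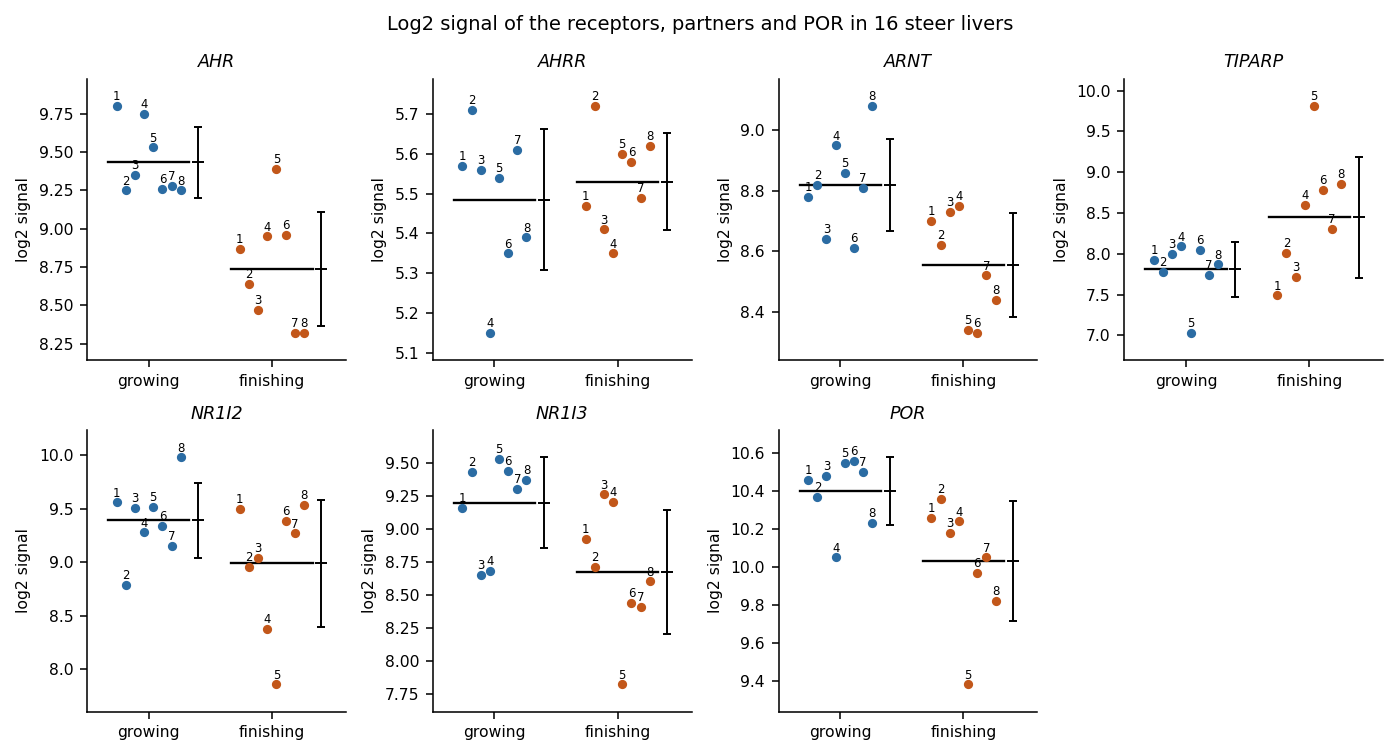
Log2 signal of the 7 genes in each liver, growing steers in blue and finishing steers in orange, with replicate numbers above the points and points spread sideways by number. Horizontal lines are group means and the bars beside them 1 SD (n = 8 per group). For AHR 7 of 8 finishing points lie below all growing points, and finishing replicate 5 is the highest TIPARP point at 9.81 and the lowest NR1I2, NR1I3 and POR point.

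AHR is made by hepatocytes and by other liver cells, so levels of cell type markers are given beside it. Over all probe sets 4.30% were called lower and 2.34% higher in finishing steers, and no marker list was tested as a group. Of 9 stellate cell and fibroblast markers 7 fell and 0 rose, and their mean log2 signal was 7.97 to 8.21 in growing and 7.26 to 7.61 in finishing livers. Of 11 macrophage markers 4 fell and 0 rose, with ranges of 9.06 to 9.57 and 8.32 to 9.50. Of 12 T and NK lymphocyte markers 6 fell and 0 rose, with ranges of 5.74 to 6.51 and 5.30 to 5.88, and 5 of the 12 lay under the median probe set mean of 5.595. Of 10 endothelial markers 2 fell and 0 rose (8.95 to 9.17 and 8.79 to 9.08), and of 7 B and plasma cell markers 1 fell and 0 rose (5.11 to 5.48 and 5.0 to 5.45), with 5 of the 7 under that median. Of 10 hepatocyte markers 1 fell and 0 rose, while no member of the cholangiocyte list (8 measured) or the neutrophil list (8 measured) passed the limma test, with 1 and 2 at an unadjusted p under 0.05. Of these, 6 of 8 cholangiocyte and 7 of 8 neutrophil markers lay under the median probe set mean, so the lack of calls says little about these cells. The part of these cells in the AHR difference was not tested, and fewer cells of a type cannot be told apart from less RNA per cell in whole liver.

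ARNT, the nuclear partner of AHR and of the hypoxia factors, read 8.78, 8.82, 8.64, 8.95, 8.86, 8.61, 8.81 and 9.08 in growing replicates 1 to 8. It read 8.70, 8.62, 8.73, 8.75, 8.34, 8.33, 8.52 and 8.44 in finishing replicates 1 to 8. All finishing steers lay below the growing mean and 4 of 8 below all growing steers, so the groups overlapped. The difference was -0.27 ± 0.083 (SE, n = 8 per group; limma adjusted p = 0.064). It lay close to the threshold: the adjusted p was 0.0468 without growing replicate 3, 0.0455 without finishing replicate 3, 0.0456 without finishing replicate 4, and 0.212 without finishing replicates 5 and 6, where the difference was -0.19.

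TIPARP, an ADP-ribosyltransferase that AHR induces and that restrains AHR in turn, was the most uneven member among finishing steers. It read 7.92, 7.78, 8.00, 8.09, 7.03, 8.05, 7.74 and 7.87 in growing replicates 1 to 8. It read 7.49, 8.01, 7.72, 8.60, 9.81, 8.78, 8.31 and 8.86 in finishing replicates 1 to 8. Finishing replicates 4 to 8 lay above all growing steers, and finishing replicates 1 to 3 lay within the growing range. The SD was 0.74 in finishing and 0.34 in growing steers, a ratio of 2.19. The difference was 0.64 ± 0.26 (SE; limma adjusted p = 0.16), 0.44 without finishing replicate 5 (adjusted p = 0.238), and 0.35 without finishing replicates 5 and 6 (adjusted p = 0.395).

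AHRR, the repressor that competes with AHR for ARNT, ran from 5.15 to 5.71 in growing and from 5.35 to 5.72 in finishing livers, with medians of 5.55 and 5.54. These values sit around the median probe set mean of 5.595, where a signal above background cannot be asserted without detection calls. The difference was 0.047 ± 0.079 (SE; limma adjusted p = 0.789), and its 95% interval of -0.12 to 0.21 leaves room for modest differences in either direction. Its sign turned to -0.0015 without growing replicate 4, the lowest array, and without finishing replicates 5 and 6 it was 0.026 (adjusted p = 0.913).

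NR1I2, the PXR sensor of steroids, bile acids and many drugs, read 9.56, 8.79, 9.51, 9.28, 9.52, 9.34, 9.15 and 9.98 in growing replicates 1 to 8. It read 9.50, 8.96, 9.04, 8.38, 7.86, 9.39, 9.27 and 9.54 in finishing replicates 1 to 8. The groups overlapped widely, with 2 finishing steers, replicates 4 and 5, below all growing steers. The difference was -0.40 ± 0.22 (SE; limma adjusted p = 0.314), without finishing replicate 5 it was -0.24 (adjusted p = 0.489), and without finishing replicates 5 and 6 it was -0.28 (adjusted p = 0.473).

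NR1I3, the CAR sensor of phenobarbital-like compounds, read 9.16, 9.43, 8.65, 8.68, 9.53, 9.44, 9.30 and 9.37 in growing replicates 1 to 8. It read 8.92, 8.71, 9.26, 9.20, 7.82, 8.44, 8.41 and 8.60 in finishing replicates 1 to 8. Finishing replicates 5 to 8 lay below all growing steers, while finishing replicates 1 to 4 lay within the growing range. The difference was -0.53 ± 0.19 (SE; 69.5% of the growing level; limma adjusted p = 0.108). It did not pass in any fit that left out 1 array, where it ran from -0.61 to -0.40 with an adjusted p of 0.0519 to 0.177. Without finishing replicates 5 and 6 it was -0.34 (adjusted p = 0.296).

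POR, the electron donor, read 10.46, 10.37, 10.48, 10.05, 10.55, 10.56, 10.50 and 10.23 in growing replicates 1 to 8. It read 10.26, 10.36, 10.18, 10.24, 9.38, 9.97, 10.05 and 9.82 in finishing replicates 1 to 8. All finishing steers lay below the growing mean, and 3 of 8 lay below all growing steers. The difference was -0.37 ± 0.12 (SE; 77.6% of the growing level; limma adjusted p = 0.0807). It passed without growing replicate 4 (-0.42, adjusted p = 0.0483), and without finishing replicates 5 and 6 it was -0.25 (adjusted p = 0.189).

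The finishing steers were more spread than the growing steers in 6 of 7 members, AHRR being the exception, beside 60.8% of all probe sets. Finishing replicate 5 held the highest TIPARP value and the lowest NR1I2, NR1I3 and POR values of the 16 livers, and the highest AHR value among finishing steers. It was the highest or lowest of the 16 arrays in 24.2% of all probe sets, more than any other array, with finishing replicate 6 next at 20.6% and every other array lower. For ARNT, NR1I3 and POR the finishing steers numbered 1 to 4 all read above those numbered 5 to 8. The respective ranges were 8.62 to 8.75 and 8.33 to 8.52 for ARNT, 8.71 to 9.26 and 7.82 to 8.60 for NR1I3, and 10.18 to 10.36 and 9.38 to 10.05 for POR. For AHR, AHRR, TIPARP and NR1I2 the readings of steers 1 to 4 and 5 to 8 overlapped. Outside the members, GADD45B split the other way, at 8.00 to 8.49 in steers 1 to 4 and 8.59 to 10.78 in steers 5 to 8, while SLC7A5 and PPARGC1A overlapped. The cut between steers 4 and 5 was not planned, and replicates 5 and 6 fall on the same side of it. The share of all probe sets split in this way was not computed, so the split cannot be called particular to ARNT, NR1I3 and POR. The labels give the numbers no meaning beyond naming the steers.

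Members were then compared steer by steer, as deviations from their group means. Of 36 pairs, 21 between members and 15 between members and target genes, 0 passed after Benjamini-Hochberg adjustment in a permutation test, and 5 had an unadjusted permutation p under 0.05. The strongest was TIPARP with POR, steers high in one being low in the other. Pearson's r was -0.781 (permutation p = 0.00188, adjusted 0.0677) and Spearman's rho -0.668 (permutation p = 0.0163, adjusted 0.22). Without the 2 steers farthest on the TIPARP axis, finishing replicates 1 and 5, r was -0.547 (permutation p = 0.0566), and within groups it was -0.414 in growing and -0.88 in finishing steers (exact permutation p = 0.266 and 0.00484). NR1I3 and POR ran in the same direction, with r = 0.705 and rho = 0.662 (permutation p = 0.00547 and 0.0123, adjusted 0.0863 and 0.22). That r was 0.639 without growing replicate 3 and finishing replicate 5 (permutation p = 0.0204), and 0.462 and 0.814 within growing and finishing steers (exact permutation p = 0.225 and 0.0146). TIPARP with NR1I3 gave r = -0.693 and rho = -0.618 (permutation p = 0.00719 and 0.0252, adjusted 0.0863 and 0.22). That r was -0.515 without finishing replicates 1 and 5 (permutation p = 0.0837), and -0.563 and -0.757 within growing and finishing steers (exact permutation p = 0.143 and 0.0294). The remaining pairs of the 5 held ARNT, with r = -0.568 for TIPARP and 0.57 for NR1I3. Their permutation p was 0.0285 and 0.0284, adjusted 0.205 for both. Without growing replicate 8 and finishing replicate 6 these r were -0.656 and 0.577 (permutation p = 0.0206 and 0.045). Within finishing steers they were -0.76 and 0.884 (exact permutation p = 0.0267 and 0.00216). In growing steers they were -0.181 and 0.0966 (exact permutation p = 0.627 and 0.827). Without finishing replicate 5 alone, r was -0.572 for TIPARP with POR, 0.499 for NR1I3 with POR and -0.494 for TIPARP with NR1I3. The permutation p values were then 0.0352, 0.0714 and 0.076. ARNT then gave r = -0.457 with TIPARP and 0.464 with NR1I3 (permutation p = 0.105 and 0.0949). Without that array 1 of the 36 pairs had an unadjusted permutation p under 0.05, and 0 passed after adjustment. AHR gave r = 0.403 with TIPARP (rho = 0.312, permutation p = 0.201 and 0.29, adjusted 0.599 and 0.725), and without growing replicate 1 and finishing replicate 5 that r was -0.0474. With its targets CYP1A1, CYP1A2 and CYP1B1, AHR gave r = -0.307, -0.334 and -0.443 (permutation p = 0.314, 0.267 and 0.132). Without the same 2 arrays these were -0.176, -0.23 and -0.415.

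**Figure D2:**
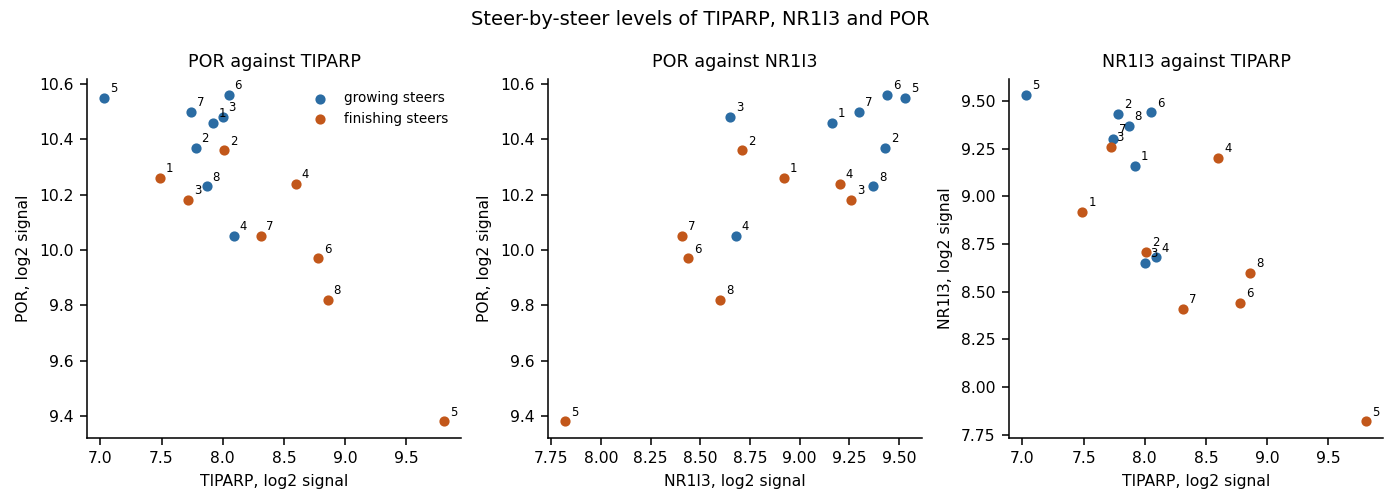
Log2 signal of POR against TIPARP, POR against NR1I3, and NR1I3 against TIPARP, 1 numbered point per steer, growing in blue and finishing in orange. Finishing replicate 5 is the corner point of each panel, with TIPARP at 9.81, POR at 9.38 and NR1I3 at 7.82.

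The genes whose deviations ran most like each member's were looked up among 16844 named genes over the 16 arrays, as a description without a test. NR1I3 ran most like DAO, D-amino acid oxidase, PRKAA2, a catalytic AMPK subunit, and MET, the hepatocyte growth factor receptor, with r = 0.951, 0.94 and 0.924. TIPARP ran most like the amino acid transporter SLC7A5, TAF1D and CDK5R1 (r = 0.941, 0.914 and 0.913), and POR most like TMT1B, ZDHHC13 and GPAM, an acyltransferase of glyceride synthesis (r = 0.928, 0.926 and 0.879). ARNT ran most like TBL1XR1, STAT5B and PIK3R3 (r = 0.881, 0.849 and 0.837). Of these, TBL1XR1, a corepressor complex subunit, fell by 0.37 ± 0.071 (SE; limma adjusted p = 0.0069) and STAT5B, a growth hormone signal transducer, by 0.36 ± 0.10 (adjusted p = 0.0402). The STAT5B call held in 5 of 16 leave-one-out fits, those without growing replicate 3 or 6 or finishing replicate 1, 3 or 4. NR1I2 ran most like ABHD17C, SPATC1L and TMEM100 (r = 0.882, 0.85 and 0.846). AHR ran most like ZNF746, BTG3 and FHIP1B (r = 0.823, 0.77 and 0.765), and AHRR most like INKA1, TMEM253 and GCM1 (r = 0.852, 0.834 and 0.819). The last 3 had growing means of 4.45, 3.52 and 4.2, under the median probe set mean, so a signal above background cannot be asserted for them or for AHRR. The same limit holds for BTG3, PIK3R3, CDK5R1 and SPATC1L, with growing means of 4.5, 4.24, 4.92 and 4.94. It also holds for SLC7A5 in growing steers, at a mean of 5.08. Of the 21 genes named, 7 were still in a member's top 3 without finishing replicate 5, and none of those named for AHR, TIPARP or NR1I2 were. Without that array the r values were 0.928, 0.926 and 0.911 for NR1I3 and 0.748, 0.719 and 0.618 for AHR, whose 3 genes then ranked 12, 18 and 78.

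Among AHR target genes, the CYP1 enzymes had small or uncertain differences beside that of the receptor. Of 12 measured targets 1 fell and 0 rose, 8.33% beside the 6.64% called over all probe sets, with a median difference of -0.016. CYP1A1, the classical AHR-induced monooxygenase, read from 9.01 to 10.11 in growing and from 8.94 to 10.60 in finishing livers, with medians of 9.63 and 9.71. Its difference was 0.23 ± 0.23 (SE; limma adjusted p = 0.618; 95% interval -0.25 to 0.70), and leaving out 1 array moved it to between 0.10 and 0.34. CYP1A2, its liver-enriched relative, lay between 12.03 and 12.29 in growing and between 11.99 and 12.33 in finishing livers. Its difference of -0.0023 ± 0.065 had a 95% interval of -0.14 to 0.13 (limma adjusted p = 0.99). CYP1B1, the third CYP1 enzyme, read from 3.98 to 5.04 over all arrays, under the median probe set mean (difference -0.078 ± 0.14, adjusted p = 0.804), and NQO1, a quinone reductase, differed by -0.17 ± 0.10 (adjusted p = 0.362). The member that fell was NFE2L2, the NRF2 factor, by 0.34 ± 0.09 (adjusted p = 0.0327). Its call was not kept without growing replicate 2, 6 or 8 or finishing replicate 2 or 4, with a highest adjusted p of 0.0666.

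**Figure D3:**
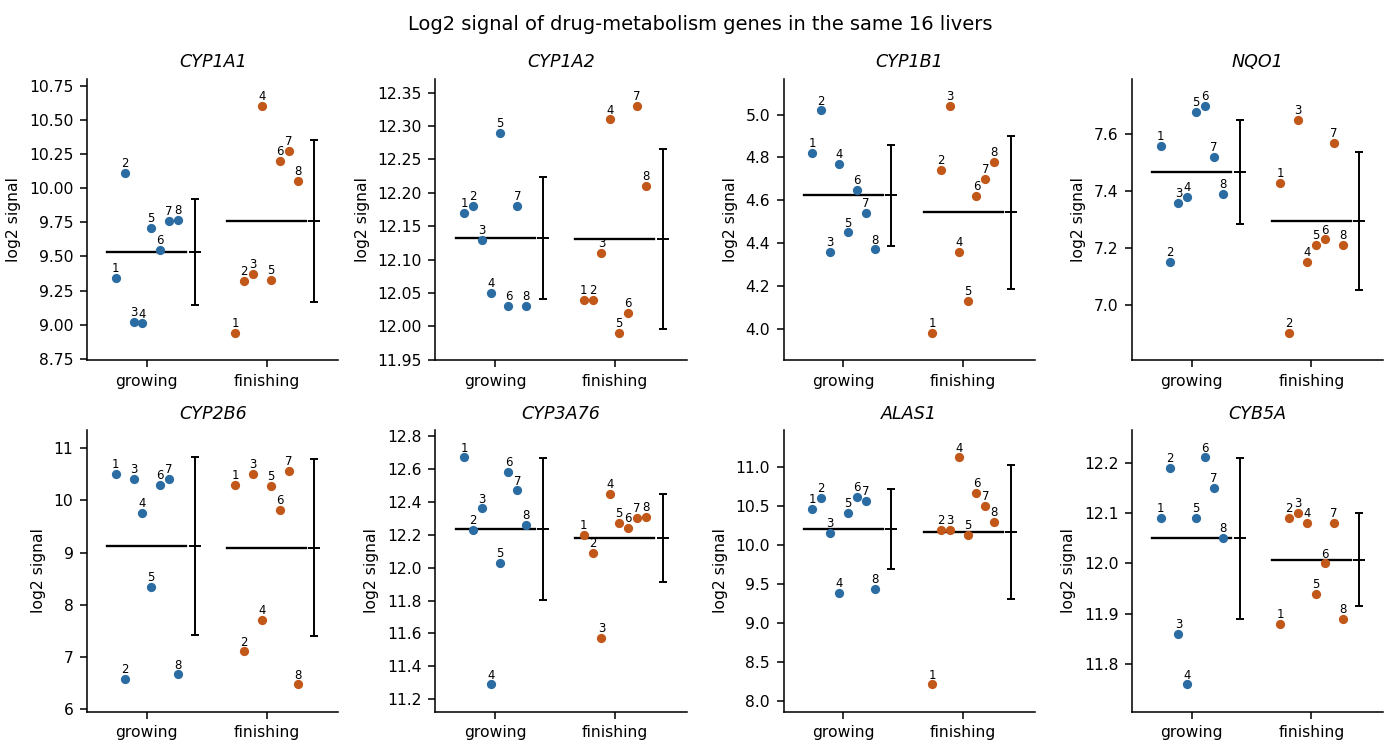
Log2 signal of 8 drug-metabolism genes in the same livers, drawn as for the receptors: group means as lines and 1 SD as bars (n = 8 per group). CYP1A2 stays between 11.99 and 12.33 in all 16 livers, and CYP2B6 has low readings, between 6.48 and 8.34, in 3 steers of each group.

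SLC7A5, listed with the AHR targets, had the largest mean difference of that list without passing. It ran from 4.62 to 5.68 in growing steers and from 4.82 to 8.84 in finishing steers, where replicates 4 to 8 read 6.74, 8.84, 7.60, 5.97 and 7.18. Its growing mean of 5.08, and finishing replicates 1 to 3 at 4.82, 5.23 and 4.87, lay under the median probe set mean of 5.595. A signal above background cannot be asserted there. As with TIPARP, finishing replicates 4 to 8 lay above all growing steers and replicate 5 was highest. The difference was 1.33 ± 0.47 (SE; limma adjusted p = 0.103), and it failed in 14 of 16 fits that left out 1 array and in the 10 other alternatives. It passed without finishing replicate 1 or 3 (lowest adjusted p = 0.0466). The difference ran from 0.98 to 1.55 when 1 array was left out, with an adjusted p up to 0.183, and was as low as 0.72 in the other alternatives, with an adjusted p up to 0.274.

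Among chaperones, partners and coactivators of AHR, 1 of 9 measured genes fell and 0 rose, 11.1% beside 6.64% over all probe sets, with a median difference of 0.0032. That gene, NCOA1, a steroid receptor coactivator, fell by 0.37 ± 0.075 (SE; limma adjusted p = 0.00847), and its groups did not overlap, as in 0.904% of all probe sets in either direction. ARNT2, the ARNT paralogue, differed by -0.15 ± 0.091 (adjusted p = 0.371). Of 9 enzymes that make or remove tryptophan-derived AHR ligands 1 fell and 0 rose (11.1%). KYNU, which cleaves kynurenines, read from 9.55 to 9.98 in growing and from 8.50 to 9.45 in finishing steers, without overlap, and fell by 0.63 ± 0.11 (adjusted p = 0.00458). Of 17 other proteins of the bHLH-PAS family, to which AHR, AHRR and ARNT belong, NCOA1 and NCOA3 fell and 0 rose (11.8%).

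Partners and regulators of PXR and CAR gave 2 falls and 0 rises among 14 measured genes, 14.3% beside the 6.64% called over all probe sets. Of the 14, 8 had a positive difference, and the median was 0.053. NCOA3, a nuclear receptor coactivator, read from 7.96 to 8.22 in growing and from 7.53 to 7.79 in finishing steers, without overlap, and fell by 0.39 ± 0.054 (SE; limma adjusted p = 0.0012). Groups did not overlap in 0.904% of all probe sets in either direction. NR3C1, the glucocorticoid receptor, which raises PXR and CAR expression in human hepatocytes, fell by 0.36 ± 0.094 (adjusted p = 0.0268). Its call was not kept without growing replicate 1, 2 or 7 or finishing replicate 5 or 8, with a highest adjusted p of 0.0554. RXRA, the common dimer partner, differed by -0.041 ± 0.074 (adjusted p = 0.807; 95% interval -0.20 to 0.12), and HNF4A, the hepatocyte nuclear factor, by -0.23 ± 0.16 (adjusted p = 0.431). Leaving out 1 array moved HNF4A to between -0.31 and -0.11, and it was -0.066 without finishing replicates 5 and 6. The largest positive differences of the list, named after their values were seen, did not pass. PPARGC1A, the coactivator PGC-1 alpha, differed by 0.82 ± 0.35 (adjusted p = 0.182), and the retinoid X receptors RXRG, dimmer than the median probe set, by 0.47 ± 0.21 (adjusted p = 0.209) and RXRB by 0.28 ± 0.083 (adjusted p = 0.0526). For PPARGC1A finishing replicates 4 to 8, at 9.29 to 10.44, lay above all growing steers, and replicate 5 was highest, as with TIPARP. For RXRG all 8 finishing steers lay above the growing mean, but only 1, at 6.91, lay above all growing steers. All 8 finishing steers lay above the growing mean for RXRB, and 5 of them above all growing steers.

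Of 20 measured targets of PXR and CAR 1 fell and 0 rose, 5.0% beside the 6.64% called over all probe sets, with a median difference of -0.033. An unadjusted limma p under 0.05 was reached by 6 of the 20, beside 21.6% of all probe sets. SLCO1B3, an organic anion uptake carrier, fell by 0.30 ± 0.076 (SE; limma adjusted p = 0.0231), and 6 of 8 finishing steers lay below all growing steers. CYP3A76, the gene to which the older name CYP3A5 points, differed by -0.058 ± 0.17 (adjusted p = 0.881), and ALAS1, the first enzyme of haem synthesis, by -0.039 ± 0.32 (adjusted p = 0.962). The largest differences of the list, named after their values were seen, did not pass. CYP2C87, a CYP2C monooxygenase, read from 5.69 to 7.64 in growing and from 6.11 to 9.05 in finishing livers, a difference of 1.01 ± 0.37 (2.01-fold; adjusted p = 0.114). GADD45B, a stress-response gene, differed by 0.82 ± 0.38 (adjusted p = 0.215), and CYP2C88, under the median probe set mean in every array, by -0.44 ± 0.15 (adjusted p = 0.0963). CYP2B6, the classical CAR target, had separate high and low readings in both phases. Growing replicates 2, 5 and 8 read 6.59, 8.34 and 6.67 and the other growing steers from 9.76 to 10.51. Finishing replicates 2, 4 and 8 read 7.11, 7.72 and 6.48 and the other finishing steers from 9.81 to 10.56. The group difference was -0.029 ± 0.76 (adjusted p = 0.989), too wide an error to bound a difference, and because the readings cluster no correlation with NR1I2, NR1I3 or POR is given.

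Electron carriers and acceptors related to POR gave 1 rise and 0 falls among 13 measured genes, 7.69% beside 6.64% over all probe sets. CYP51A1, the sterol demethylase that POR reduces, rose by 0.74 ± 0.20 (SE; limma adjusted p = 0.0332), with 6 of 8 finishing steers above all growing steers. Its call was not kept without growing replicate 1, 4, 6, 7 or 8 or finishing replicate 5, 6, 7 or 8, with a highest adjusted p of 0.0682. SQLE, named after its values were seen, had the largest difference of the same list without passing, 0.83 ± 0.25 (SE; limma adjusted p = 0.0531). CYB5A, cytochrome b5, an alternative electron donor to P450s, differed by -0.042 ± 0.071 (adjusted p = 0.786). In the haem list BLVRB, biliverdin reductase B, was the 1 gene of 9 that fell (11.1%), by 0.42 ± 0.086 (adjusted p = 0.00943), and the highest finishing steer, at 8.88, lay below the lowest growing steer, at 8.92. Such a lack of overlap was found in 0.904% of all probe sets in either direction.

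**Figure D4:**
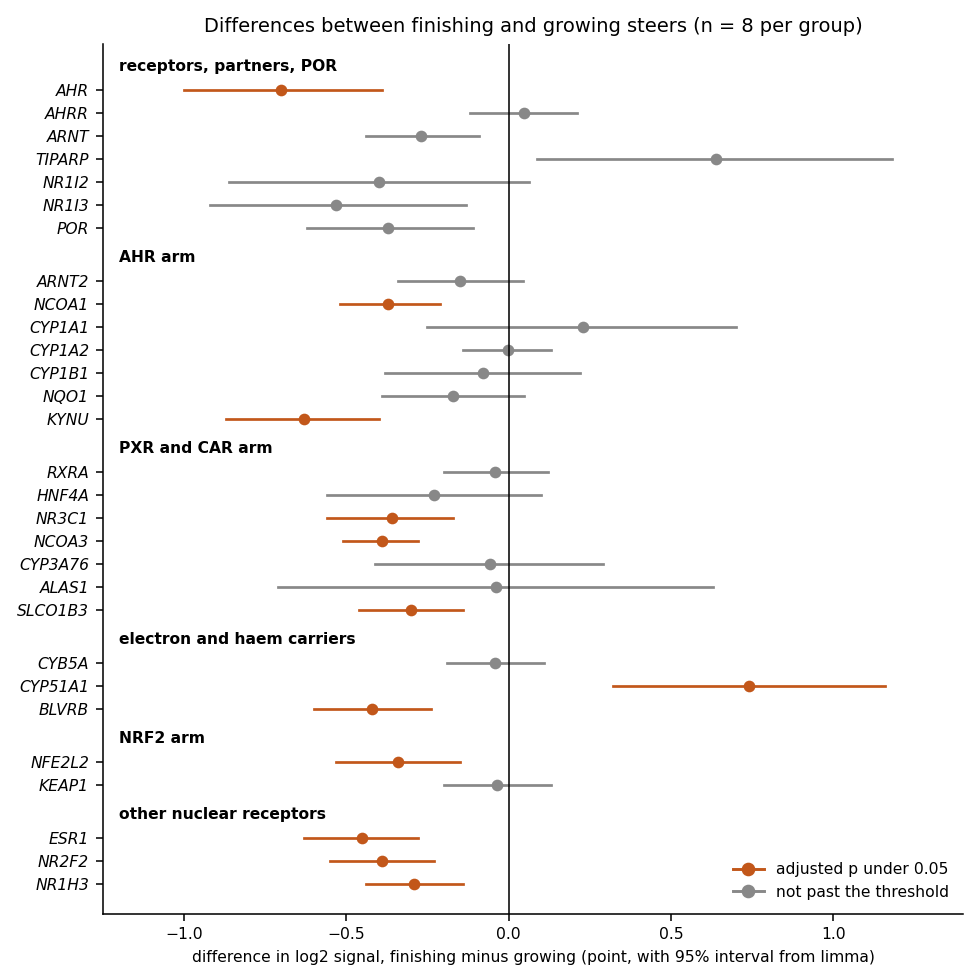
Difference in log2 signal, finishing minus growing, for the 7 genes and for genes of their pathways, grouped by role, with 95% intervals from limma (n = 8 per group). Orange marks an adjusted p under 0.05 and grey the rest. AHR is the 1 orange member among the first 7, at -0.70, while CYP1A1, CYP1A2, CYP1B1 and NQO1 are grey.

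Other ligand-sensing nuclear receptors were set beside NR1I2 and NR1I3. Of 19 measured, 4 fell and 0 rose, 21.1% beside the 6.64% called over all probe sets, with a median difference of -0.055. ESR1, the estrogen receptor, fell by 0.45 ± 0.083 (SE; limma adjusted p = 0.005) on the brighter of its 2 probe sets, and the dimmer one, at a growing mean of 4.87, differed by -0.12 ± 0.094 (adjusted p = 0.483). On the brighter one the groups did not overlap (lowest growing 8.21, highest finishing 8.12), as in 0.904% of all probe sets in either direction. NR2F2, an orphan receptor, fell by 0.39 ± 0.076 (adjusted p = 0.00655) and NR1H3, the oxysterol receptor LXR alpha, by 0.29 ± 0.07 (adjusted p = 0.0195). The fourth was NR3C1.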

How the data were processed

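Liver RNA from 16 steers was measured with 1 array per animal. Per the labels, RNA was extracted with Trizol and labelled as biotinylated cRNA by the Affymetrix protocol. GCOS 1.2 and Partek 6.4 appear in the submitters' processing notes, their roles unstated. What the authors deposited reads as log2 signal, 1 value per probe set, judged by its range of 1.48 to 14.1. Array medians of 5.57 to 5.64 show a common scale, and the values were used as deposited. How the authors normalised them is not given in the sources used.

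Gene names rest on the platform's annotation: 18457 probe sets carried 1 symbol, 688 several, and 7628 were unnamed here. The liver gene APOA1 read 6.62 under it, so single assignments may be wrong. RefSeq's ARS-UCD2.0 gene table matched 17996 probe sets and changed 0 symbols. The brightest probe set stood for a gene.

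The fit was limma 3.58.1 in R 4.3.3 (lmFit, eBayes, 2-sided), tested on simulated data. Correlations used deviations from group means, with 100000 permutations within groups. Named genes are the members, the 3 most alike genes per member, up to 6 called genes per pathway list, and CYP1A1, CYP1A2, CYP1B1, NQO1, CYP2B6, ALAS1, RXRA, HNF4A, ARNT2, CYB5A, NFE2L2 and KEAP1. CYP3A4 is not analysed here. CYP3A76, SLC7A5, uncalled genes with large differences, and the marker lists were described after their values were seen. The members and lists were chosen with earlier results of these data known. Alternatives were normalisations, variance models, filters, exact tests, a replicate block and left-out arrays. Array number limits precision.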

Additional observations from a re-analysis of the deposited data

Results flagged for a closer look

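Of 70 combinations of gene and group, 8 held 1 array far from the rest past Dixon's 95% critical value for 8 arrays, which chance alone would give for about 1 in 20 groups. TIPARP read 7.03 in growing replicate 5, and the next growing steer read 7.74. ALAS1 read 8.21 in finishing replicate 1, with the other finishing steers from 10.13 to 11.12. CYP3A76 read 11.29 in growing replicate 4 and 11.57 in finishing replicate 3, where the next steers read 12.03 and 12.09. The other 4 all lay in finishing replicate 5, the array that correlated least with its group. HNF4A read 9.78 there, against 10.45 in the next steer. RXRA read 8.08 against 8.37, NR2F2 8.54 against 8.80, and BLVRB 8.39 against 8.65.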

How the results depend on the processing

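AHR kept its direction in all alternatives and its call in all but the exact rank-sum test (-0.70, adjusted p = 0.0524). The count of called members, 1 in the main comparison, was 2 with array weights (AHR, and ARNT at -0.26), 3 over probe sets above the median mean (AHR, ARNT at -0.27 and POR at -0.37), 2 over probe sets with 1 symbol (AHR, and ARNT at -0.27), 0 by rank-sum test, and 1 to 2 when 1 array was left out. ARNT ran from -0.29 to -0.23 and POR from -0.42 to -0.27 when 1 array was left out. TIPARP ran from 0.44 to 0.77, NR1I2 from -0.49 to -0.24, NR1I3 from -0.61 to -0.40 and AHRR from -0.0015 to 0.079, none past the threshold. Of all probe sets, 1777 were called in the main comparison, 910 with a replicate block, 942 without finishing replicates 5 and 6, 431 at an adjusted p under 0.01, and 1282 to 2205 when 1 array was left out. Same-numbered steers did not deviate together (r from -0.153 to 0.0406, with 0 of 8 matching best). That they are separate animals comes from the design, since such r values cannot show it. With the replicate block AHR was again the 1 called member. Of 15 called genes outside the members, 8 were not called without finishing replicates 5 and 6 (NFE2L2, NR3C1, SLCO1B3, CYP51A1, NR1H3, PARP8, ZC3HAV1 and STAT5B), 6 with the replicate block, 4 by rank-sum test and 3 by exact permutation test. Some of these alternatives hold fewer probe sets or arrays, and the cause of the shifts was not tested. Differences near 0 changed sign. CYP1A2 was 0.012 with array weights and 0.039 without finishing replicates 5 and 6, RXRA was 0.007 and KEAP1 0.0015 without those 2. Without those 2, TIPARP was 0.35, NR1I3 -0.34, NR1I2 -0.28 and AHRR 0.026, none past the threshold. Leaving out 1 array gave -0.03 to 0.02 for CYP1A2, -0.15 to 0.0023 for CYP1B1, -0.39 to 0.34 for CYP2B6, -0.18 to 0.24 for ALAS1, -0.063 to 0.015 for RXRA, -0.19 to 0.029 for CYP3A76 and -0.081 to 0.0095 for KEAP1. A mean over several probe sets did not apply, since each member has 1. Each member lacks a detection call, and AHRR, near the middle of the scale, is the least certain.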

Other observations

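Of 14 measured relatives of TIPARP in the PARP family, 2 fell and 0 rose, 14.3% beside the 6.64% called over all probe sets. As a description with no test of the group, 3 had a positive and 11 a negative difference, beside 43.5% of all probe sets, and the median was -0.18. PARP8 fell by 0.50 ± 0.12 (SE, n = 8 per group; limma adjusted p = 0.0174), and ZC3HAV1, an antiviral RNA-binding relative, by 0.32 ± 0.089 (adjusted p = 0.0427). The ZC3HAV1 call held only without growing replicate 3 or 4 or finishing replicate 3, 4 or 7, among the 16 leave-one-out fits (highest adjusted p = 0.0847). TIPARP, at 0.64, had the opposite sign to both.

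Of the NRF2 pathway, a further sensor of reactive compounds, NFE2L2 was the 1 gene of 12 that fell and 0 rose, 8.33% beside the 6.64% called over all probe sets, with a list median of -0.042. KEAP1, which holds NRF2 in the cytoplasm, differed by -0.035 ± 0.079 (SE; limma adjusted p = 0.847).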
